A study of Mus musculus with 4 samples.

Results

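The blood-spinal cord barrier genes described here are 10 genes chosen by symbol, Cldn5, Ocln, Tjp1, Cdh5, Slc2a1, Mfsd2a, Slco1a4, Slco1c1, Abcb1a and Plvap, of 53647 genes listed for each library. All 10 were found, each with 1 Ensembl identifier. Spinal cord of aged C57BL/6J mice was taken 28 days after spinal cord injury as a 2 mm segment that held the lesion, dissociated into single cells and sequenced from the 3′ end. One group of mice had received IgG, the control antibody, and the other Anti-CD8, an antibody against a surface protein of cytotoxic T cells. Each group had 2 libraries, all 4 of them aged, injured and antibody-treated. There is no uninjured or young group among them. Mouse age in months, mice per library, and antibody dose and route are not known here.

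Vessels of the spinal cord are lined by endothelial cells that keep blood and tissue apart. Neighbouring cells are sealed by tight junctions over a belt of adherens junctions, few vesicles cross the cell, and nutrients and hormones pass on dedicated carriers while pumps return many foreign molecules to the blood. Cldn5 and Ocln are transmembrane proteins of the tight junction, Tjp1 is the scaffold beneath it, and Cdh5 is the adherens junction cadherin of endothelium. Slc2a1 is the GLUT1 glucose transporter, Mfsd2a carries lysophospholipids and restrains vesicle transport, Slco1a4 carries organic anions, and Slco1c1 carries thyroxine. Abcb1a encodes P-glycoprotein, the main drug efflux pump. Plvap forms the diaphragms of fenestrated vessels and is low in vessels with a mature barrier.

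Upstream sequence could be set beside the levels for 8 of the 10 genes, all but Cdh5 and Plvap, as RefSeq lists it on build GRCm38.p6. In the 250 bases before the annotated start, Slco1a4, Slco1c1 and Abcb1a each held 0 CpG dinucleotides, as did 7.9% of 32841 listed promoters, whose median was 6. The other 5 genes held 12 for Cldn5, 13 for Slc2a1, 17 for Mfsd2a, 22 for Tjp1, and 14 and 22 at the 2 listed starts of Ocln. Capitals below mark matches of 4 motifs searched on both strands: GGAAG for ETS factors (in 64.1% of all listed promoters), CATTGT for SOX factors (10.7%), CTTTGA for TCF/LEF factors (13.8%) and GTAAACA for forkhead factors (3.17%). The 3 promoters without CpG are printed because their genes share this feature, and that of Tjp1 is printed for contrast, since Tjp1 was found in many cell classes. No match of one motif overlapped a match of another, and a match describes letters only.
Slco1a4, chr6:141856221-141856470, minus strand: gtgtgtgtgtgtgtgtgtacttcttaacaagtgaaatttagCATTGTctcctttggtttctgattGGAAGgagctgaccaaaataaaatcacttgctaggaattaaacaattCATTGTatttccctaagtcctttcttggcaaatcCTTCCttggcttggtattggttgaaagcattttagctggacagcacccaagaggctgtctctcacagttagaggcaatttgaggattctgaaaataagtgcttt
Slco1c1, chr6:141524104-141524353, plus strand: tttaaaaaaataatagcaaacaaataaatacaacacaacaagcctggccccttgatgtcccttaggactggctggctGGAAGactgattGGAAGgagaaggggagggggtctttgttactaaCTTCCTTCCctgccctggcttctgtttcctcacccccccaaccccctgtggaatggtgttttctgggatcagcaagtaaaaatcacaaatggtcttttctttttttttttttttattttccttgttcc
Abcb1a, chr5:8566841-8567090, plus strand: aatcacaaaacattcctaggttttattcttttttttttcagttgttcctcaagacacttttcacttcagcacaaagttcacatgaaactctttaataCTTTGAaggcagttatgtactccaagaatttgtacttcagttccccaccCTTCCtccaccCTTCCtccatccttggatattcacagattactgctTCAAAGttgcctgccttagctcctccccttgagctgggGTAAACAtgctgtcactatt
Tjp1, chr7:65371245-65371494, minus strand: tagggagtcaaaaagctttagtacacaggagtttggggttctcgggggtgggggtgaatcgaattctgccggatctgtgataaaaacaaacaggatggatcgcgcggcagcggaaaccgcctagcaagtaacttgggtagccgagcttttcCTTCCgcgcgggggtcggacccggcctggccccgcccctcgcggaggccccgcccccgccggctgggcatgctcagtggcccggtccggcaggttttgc
Slco1a4 held 2 ETS and 2 SOX matches, Slco1c1 held 4 ETS matches, and Abcb1a held 2 ETS, 2 TCF/LEF and 1 forkhead match. Tjp1 held 1 ETS match, Mfsd2a 1 TCF/LEF match, and Cldn5, Ocln and Slc2a1 none of the 4 motifs.

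The 4 libraries held between 152457679 and 170539226 unique molecular identifiers (UMIs, counted transcripts), and 27695 cells remained after filters and doublet removal, between 6108 and 7816 a library. Of 29869 distinct cell barcodes, 87 were found in more than 1 library, as were 70 among the cells kept. Endothelial cells formed 1 cluster of 1678 cells, 336 and 352 in the IgG libraries and 568 and 422 in the Anti-CD8 libraries. All 12 endothelial markers, among them Pecam1, Flt1 and Tek, were detected there, and their summed level lay between 17780 and 18362 UMIs per 1000000 UMIs (CPM) in the 4 libraries. Markers of other cell types in this cluster were lower: the 12 pericyte and smooth muscle markers summed to between 346 and 547 CPM and the 10 microglial markers to between 146 and 195. A neighbouring cluster of 283 cells held endothelial and mural markers together at high depth and was kept apart. So was a cluster of 287 cells with both kinds of marker at a median of 1024 to 1220 UMIs a cell in the 4 libraries, which was not named as endothelial. Another class, of 524 cells, scored highest for monocyte and macrophage markers but was led by MHC class II and immunoglobulin genes such as H2-Eb1 and Igkc, and is called MHC class II-high myeloid here. Microglia were 17036 cells, of which 3736 lay in 3 clusters of doubtful name, and T cells 1700, of which 172 lay in 1 such cluster. These were shallow with no own marker among their leading genes, or scored nearly as high or higher for another type. Mean ± SD below is over the 2 libraries of a group or, where n = 4, over all libraries, and levels (CPM) are UMIs of the gene per 1000000 UMIs of the cell class.

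Endothelial cells held most of the UMIs of 7 barrier genes. Of all UMIs of the gene in all cells, endothelial cells held on average 83.3% for Slco1a4, 81.9% for Cldn5, 81.8% for Slco1c1, 80.7% for Cdh5, 77.6% for Mfsd2a, 73.1% for Abcb1a and 67.7% for Ocln over the 4 libraries. The cluster with mixed endothelial and mural markers held between 13.1% and 16.3% more for these 7 genes. Slc2a1 and Tjp1 were shared out differently, with 45.3% and 44.1% of UMIs in endothelial cells and 32.4% and 31.5% in microglia, which were the most numerous class. Plvap stood apart, with 18 of its 201 UMIs in endothelial cells and 127 in neurons. Shares of this kind depend on how many cells of each class were recovered, so levels within each class are given next.

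**Figure D1:**
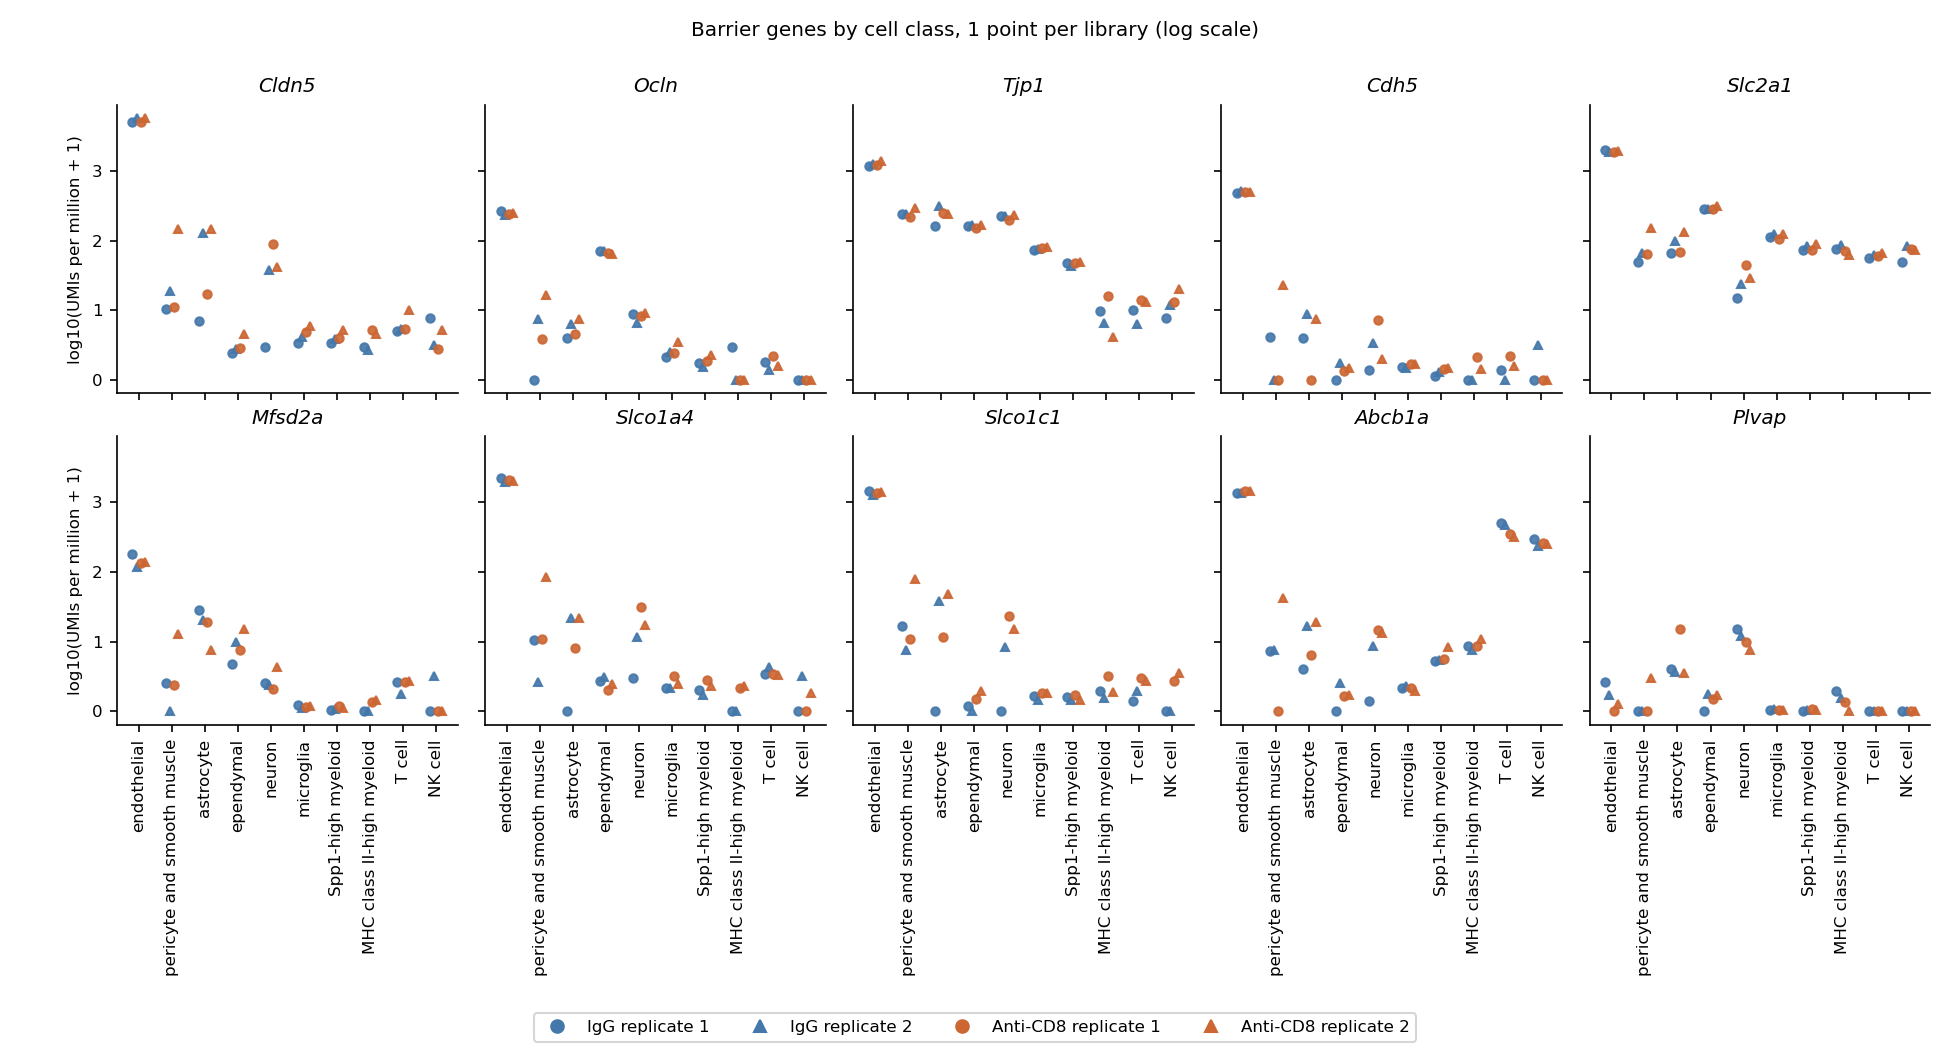
Level of each barrier gene in 10 cell classes, as log10 of CPM plus 1 on the vertical axis, with 1 point for each of the 4 libraries and colour for the antibody. Endothelial cells were highest for every gene but Plvap, while Tjp1 and Slc2a1 were found in many classes, Abcb1a also in T and NK cells, and Ocln also in ependymal cells.

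Among the junction genes, Cldn5 and Cdh5 were mainly endothelial. Cldn5 was at 5389 ± 383 CPM in endothelial cells (SD, n = 4) and at 3.6 in microglia and 2.2 in ependymal cells. Cdh5 was at 499.9 ± 9.81 (SD, n = 4) against 0.614 or less in microglia, ependymal, T and NK cells and the 2 myeloid classes. It was not confined to endothelium, as fibroblasts held between 0.35% and 0.71% of its UMIs. Those were only 6, 11, 16 and 14 cells in the 4 libraries. Ocln was at 247 ± 13.2 in endothelial cells (SD, n = 4) and had a further site in ependymal cells, which line the central canal, at 70.2, 69.2, 64.5 and 62.8 in the 4 libraries. Tjp1 was at 1259 ± 88.2 in endothelial cells (SD, n = 4), 249 in pericytes and smooth muscle, 243 in astrocytes, 222 in neurons, 161 in ependymal cells and 76.0 in microglia. The 3 neighbours in that order from pericytes to neurons overlapped in their libraries, and endothelial cells stood above all of them in each library. Fibroblasts, at 47 cells, were left out of this order though they held between 0.12% and 0.64% of Tjp1 UMIs.

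Among the carriers, Slc2a1 was found in every class. It was at 1935 ± 52.3 CPM in endothelial cells (SD, n = 4), 292 in ependymal cells, 117 in microglia, 60.9 in T cells and 27.3 in neurons. Slco1a4 and Slco1c1 were at 2073 ± 121 and 1372 ± 82.4 in endothelial cells (SD, n = 4), and at 1.5 and 0.69 in microglia. Mfsd2a was at 142 ± 27.1 in endothelial cells (SD, n = 4), the least even of the 9 genes between libraries, and its next classes were astrocytes at 17.8 and ependymal cells at 8.4. The astrocyte value came from 39 UMIs, so its order among libraries is not interpretable.

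The efflux pump gene Abcb1a was at 1400 ± 65.0 CPM in endothelial cells (SD, n = 4). It was the barrier gene with a second strong site among blood-derived cells, at 411 ± 92.2 in T cells and 262 ± 29.3 in NK cells (SD, n = 4), against 8.0 in MHC class II-high myeloid cells and 1.2 in microglia. Its related neighbour Abcb1b was at 11.9 in endothelial cells. How well reads were told apart between the 2 genes was not tested, so the level of Abcb1a carries that uncertainty. Likewise the relatives Slco1a5 and Slco1a6 of Slco1a4 were at 0.37 and 0.037.

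In astrocytes, neurons and mural cells the endothelial genes varied between libraries together with the endothelial markers. In neurons Cldn5 was at 1.97 and 36.5 CPM in the IgG libraries and 87.3 and 40.5 in the Anti-CD8 libraries, while the 12 endothelial markers, all detected, summed to 62.8 and 138 against 279.7 and 184. In astrocytes Cldn5 was at 6.01 and 127 against 16.2 and 147, and the endothelial markers were at 42.1 and 325 against 77.2 and 214. In pericytes and smooth muscle the second Anti-CD8 library held Cldn5 at 145 against between 9.44 and 18.0 in the others, and endothelial markers at 1104 against between 374 and 437. The part of these endothelial markers in the levels of Cldn5, Slco1a4, Slco1c1 and Abcb1a outside endothelium was not tested.

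Gene patterns across 11 classes were compared by the Pearson r of log2(level + 1) of the class means, as a description over classes that share libraries. The most alike gene outside the set was Ramp2 for Cldn5 (r = 0.996) and for Slco1c1 (r = 0.994), Adgrl4 for Slco1a4 (r = 0.999), Stra6 for Cdh5 (r = 0.998), Cavin2 for Ocln (r = 0.992) and Fmo1 for Mfsd2a (r = 0.986). Ramp2 is a receptor partner of endothelium and Adgrl4 an adhesion receptor that served here as an endothelial marker. For the genes of wider pattern it was Gbp4 for Abcb1a (r = 0.976), Dync1h1 for Tjp1 (r = 0.965) and Parp12 for Slc2a1 (r = 0.961). For Plvap it was Stmn4, a neuronal gene (r = 0.983).

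At the level of single cells, most barrier genes were found in nearly all endothelial cells, Mfsd2a in fewer and Plvap, given below, in very few. The share with at least 1 UMI was on average 99.9% for Cldn5, 99.7% for Abcb1a and Slco1a4, 99.6% for Slc2a1, 99.0% for Slco1c1, 98.6% for Tjp1, 97.4% for Cdh5, 91.5% for Ocln and 72.6% for Mfsd2a. With each cell thinned to 2000 UMIs, which left out 8 shallower endothelial cells, the shares were 99.9% for Cldn5, 96.5% for Slc2a1, 96.4% for Slco1a4, 91.5% for Abcb1a, 89.4% for Slco1c1, 87.0% for Tjp1, 60.9% for Cdh5, 38.7% for Ocln and 25.5% for Mfsd2a. In microglia, which should lack the endothelial genes and were deeper at a median of 17727 to 22421 UMIs a cell against 13719 to 17821, the unthinned shares were at most 7.72% for Cldn5, 3.83% for Slco1a4, 2.1% for Abcb1a and 0.52% for Mfsd2a. Slc2a1 and Tjp1 were found in 71.3% to 78.8% and 64.9% to 68.8% of microglia, far above those genes. Intervals and limits on counts in this section cover counting error only.

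Plvap was close to absent from endothelium. Over 1678 endothelial cells 18 UMIs were counted in 6 cells, 11 of them in a single cell of the first IgG library. The libraries held 11 UMIs in 1 cell, 5 UMIs in 3 cells, 0 UMIs and 2 UMIs in 2 cells, in the order IgG 1, IgG 2, Anti-CD8 1 and Anti-CD8 2. The 0 of 568 cells in the first Anti-CD8 library allows a share of up to 0.528% of cells with a UMI. The gene did not pass the filter on low counts in endothelial cells and was not tested there. Most Plvap UMIs, 125 of 201, came from 85 of the 472 cells of 1 neuronal cluster, at 12.1 CPM, where no cell held more than 5. Over all neurons its levels were 14.2 and 11.1 CPM in the IgG libraries and 8.91 and 6.58 in the Anti-CD8 libraries, with a log2 fold change of -0.72 (edgeR's quasi-likelihood test, unadjusted p = 0.05, adjusted p = 0.475).

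The comparison of the antibody groups in endothelial cells called no barrier gene. Of the 9 genes that passed the filter on low counts, 0 differed between Anti-CD8 and IgG at an adjusted p under 0.05 (edgeR's quasi-likelihood test, Benjamini-Hochberg adjusted) over all 13920 genes tested, of which 0% were called. At an unadjusted p under 0.05 there were 665 genes, none of them a barrier gene, and DESeq2 called 6 genes, again no barrier gene. The 9 log2 fold changes lay between -0.13 and 0.10 with a median of -0.01, beside a median of 0.00 over all genes tested, 4 above 0 and 5 below. Fewer molecules per cell and a shift between kinds of endothelial cell cannot be told apart in these sums. Median depth in endothelial cells was 17821 and 16701 UMIs a cell in the IgG libraries and 14472 and 13719 in the Anti-CD8 libraries. In microglia it was 22215 and 22421 against 17727 and 18971. Depth and antibody therefore cannot be told apart in these classes. Whether replicate libraries came from separate mice is not given beyond their name as biological replicates, so the p-values refer to the spread between libraries only.

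Cldn5 was at 4996 and 5689.8 CPM in the IgG libraries and 5124 and 5744 in the Anti-CD8 libraries. Ocln was at 265 and 236 against 239 and 249.9. Tjp1 was at 1169.6 and 1271 against 1220.3 and 1376. For each of these 3 junction genes the groups overlapped, with log2 fold changes of 0.01 for Cldn5 (95% interval -0.20 to 0.23), -0.05 for Ocln (-0.24 to 0.15) and 0.08 for Tjp1 (-0.12 to 0.27). Cdh5 was at 487 and 511 against 498 and 503, the Anti-CD8 libraries falling inside the IgG range, and its log2 fold change was -0.01 (-0.17 to 0.16).

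Slc2a1 was at 1994 and 1884 CPM in the IgG libraries and 1899 and 1963 in the Anti-CD8 libraries, a log2 fold change of -0.02 (-0.20 to 0.16). Slco1a4 was at 2235 and 1961 against 2091 and 2003, a log2 fold change of -0.05 (-0.25 to 0.16). Slco1c1 was at 1462 and 1265 against 1361 and 1400.5, a log2 fold change of 0.01 (-0.20 to 0.21). For these 3 carriers both Anti-CD8 libraries lay inside the range of the IgG libraries. Mfsd2a was at 180.0 and 116 against 135 and 137, so that the IgG libraries were the highest and the lowest of the 4. Its log2 fold change of -0.13 had the widest interval of the 9 genes, -0.50 to 0.24, and became 0.23 without the first IgG library and -0.43 without the second (adjusted p = 0.957 and 0.0928 in edgeR's quasi-likelihood test).

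Abcb1a was at 1343 and 1345 CPM in the IgG libraries and 1444 and 1468 in the Anti-CD8 libraries. It was the 1 barrier gene of 9 whose groups did not overlap in endothelial cells, where 32.9% of the 13920 genes tested did not overlap. Its log2 fold change was 0.10 (95% interval -0.07 to 0.27, adjusted p = 0.999 in edgeR's quasi-likelihood test), with group means of 1344 ± 1.37 in IgG and 1456 ± 17.0 in Anti-CD8 (SD, n = 2).

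**Figure D2:**
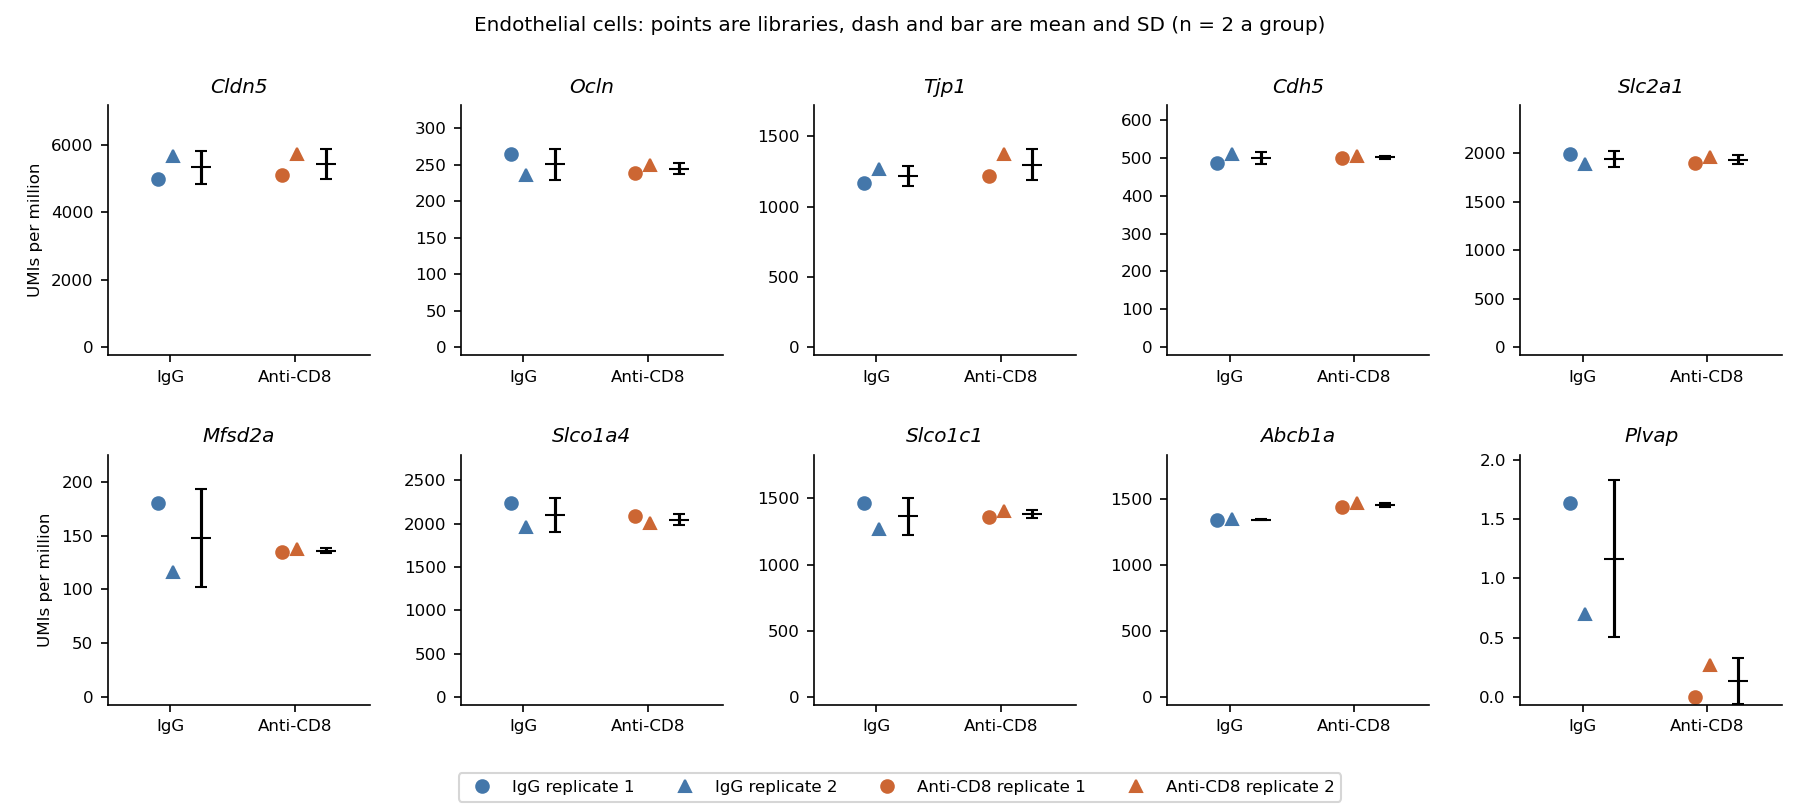
Level of each barrier gene in endothelial cells, in CPM, with 1 point for each library, and the mean and SD of the 2 libraries of a group beside them. The groups overlap for 8 of the 9 genes tested, Abcb1a being the exception, and Plvap stays under 2 CPM.

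Endothelial cells were divided into segments by their markers: 339 capillary cells, 386 arterial cells, 371 venous cells and 582 cells that met no segment's rule. The capillary name is the least sharp. The 8 capillary markers summed to between 9714 and 10881 CPM in capillary cells and between 9373 and 10178 in arterial cells. An unnamed subcluster of 191 cells scored 0.402 for these markers, beside 0.398 and 0.407 in the capillary subclusters. Cells like capillary cells therefore also lay outside the segment. The barrier genes had been kept out of the genes used to cluster, but segments come from the same cells, so their differences are described without a test. Median depth was unequal, from 9327 to 10226 UMIs a cell in capillary cells, 12656 to 18641 in arterial cells and 23264 to 31664 in venous cells, and its part in the levels was not tested. In each segment both Anti-CD8 libraries were shallower than both IgG libraries.

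Mfsd2a followed the vessel most steeply. It was at 232, 163, 165 and 152 CPM in capillary cells of the 4 libraries (IgG 1, IgG 2, Anti-CD8 1 and Anti-CD8 2), at 228, 128, 183 and 199 in arterial cells, and at 124, 58.9, 89.9 and 95.5 in venous cells. Every capillary and arterial value stood above every venous value, and the means were 1.93 and 2 times the venous mean. Slco1c1 had the same order against veins, at 1502 ± 39.99 in capillary, 1754 ± 167 in arterial and 1027 ± 120 in venous cells (SD, n = 4). Slc2a1 was at 2092 ± 96.5, 2351 ± 186 and 1591 ± 81.8 (SD, n = 4), again without overlap between veins and the other segments.

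The junction genes were arranged otherwise. Cldn5 was highest in capillary cells at 6434 ± 556, then 5603 ± 299.8 in arterial and 4801 ± 484 in venous cells (SD, n = 4), in that order in each library, though neighbours overlapped across libraries. Tjp1 was the reverse against veins, at 1503 ± 134 in venous, 1215 ± 98.4 in capillary and 1039 ± 63.5 in arterial cells (SD, n = 4). Cdh5 was lowest in capillary cells, at 451 ± 29.9, against 539 ± 26.3 in arterial and 509 ± 22.4 in venous cells (SD, n = 4). Ocln was at 285 ± 26.7 in capillary cells, and its arterial and venous levels of 238 ± 21.0 and 234 ± 4.60 overlapped (SD, n = 4).

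Slco1a4 was a capillary gene among the carriers, at 2523 ± 48.1 against 1846 ± 154 in arterial and 2001 ± 96.0 in venous cells (SD, n = 4). Abcb1a was highest in venous cells in each library, at 1543 ± 96.7, with 1433 ± 76.4 in capillary and 1299.7 ± 100.1 in arterial cells (SD, n = 4), and capillary and venous ranges overlapped. So 3 carrier genes, Mfsd2a, Slco1c1 and Slc2a1, were lower in venous than in arterial cells in each library, while Tjp1 and Abcb1a were higher there. Slco1a4 was higher in venous cells too, but its ranges overlapped. In the first Anti-CD8 library it was nearly level, at 1973 CPM in arterial and 1974 in venous cells.

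**Figure D3:**
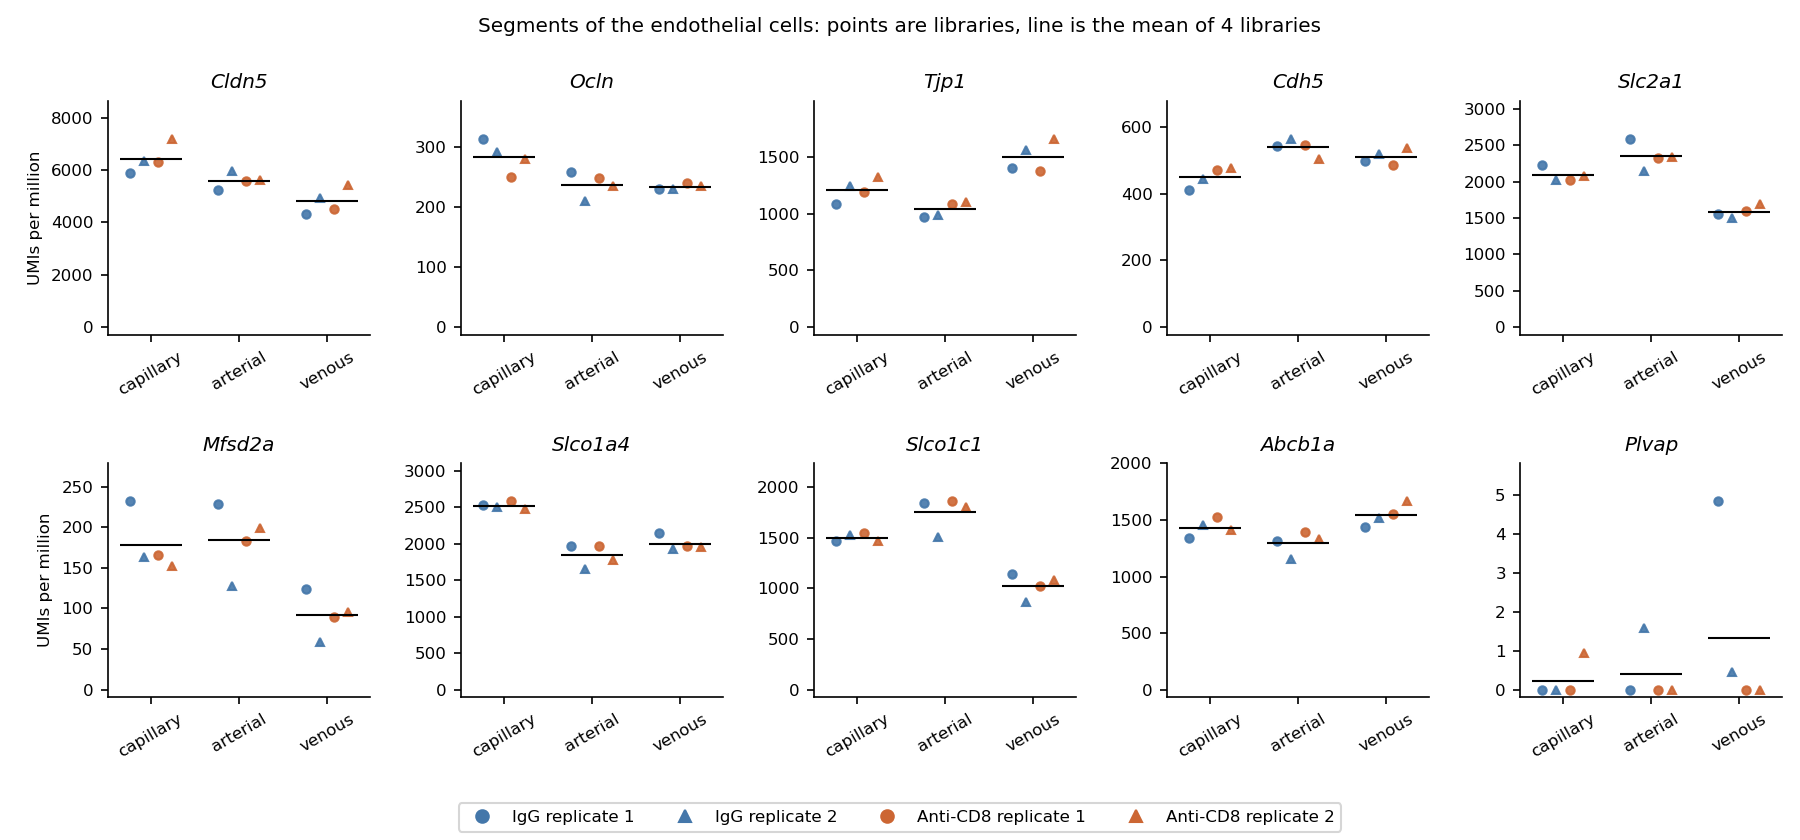
Level of each barrier gene in capillary, arterial and venous endothelial cells, in CPM, with 1 point for each library and a line at the mean of 4 libraries. Mfsd2a, Slco1c1 and Slc2a1 sit lower in venous cells, Tjp1 sits higher there, and the 2 antibody groups intermix in most panels.

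Within segments the antibody groups did not differ in a barrier gene at an adjusted p under 0.05 in edgeR's quasi-likelihood test. In capillary cells 0 of 9 were called, where 0.0782% of 8950 genes were (7 genes, 0.0223% higher in Anti-CD8 and 0.0559% lower). In arterial cells 0 of 9 were called, where 0% of 10247 genes were, and in venous cells 0 of 9, where 0.0089% of 11233 genes were. Unadjusted p was under 0.05 for 420, 491 and 547 genes in the 3 segments. The groups did not overlap for Cdh5 (higher in Anti-CD8) and Ocln (lower) in capillary cells, for Abcb1a and Tjp1 in arterial cells and for Abcb1a, Ocln and Slc2a1 in venous cells (all 5 higher in Anti-CD8), beside 32.2%, 33.4% and 33.5% of all genes tested.

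Mfsd2a in capillary cells was the 1 barrier gene with an unadjusted p under 0.05. Its log2 fold change there was -0.35 (95% interval -0.69 to 0.00, unadjusted p = 0.0483, adjusted p = 1), and the first IgG library at 232 was the high value while the second IgG library lay among the Anti-CD8 libraries. The log2 fold change was 0.13 in arterial cells (-0.31 to 0.57) and 0.01 in venous cells (-0.50 to 0.53). The difference of the fold changes itself, fitted in 1 model with library as a block, was -0.37 between capillary and venous cells (unadjusted p = 0.0558, adjusted p = 0.993) and -0.45 between capillary and arterial cells (unadjusted p = 0.031, adjusted p = 1). Of 10817 genes, 0 were called in the first of these contrasts, with 439 at an unadjusted p under 0.05, and 1 of 9862 in the second. No barrier gene was among them.

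**Figure D4:**
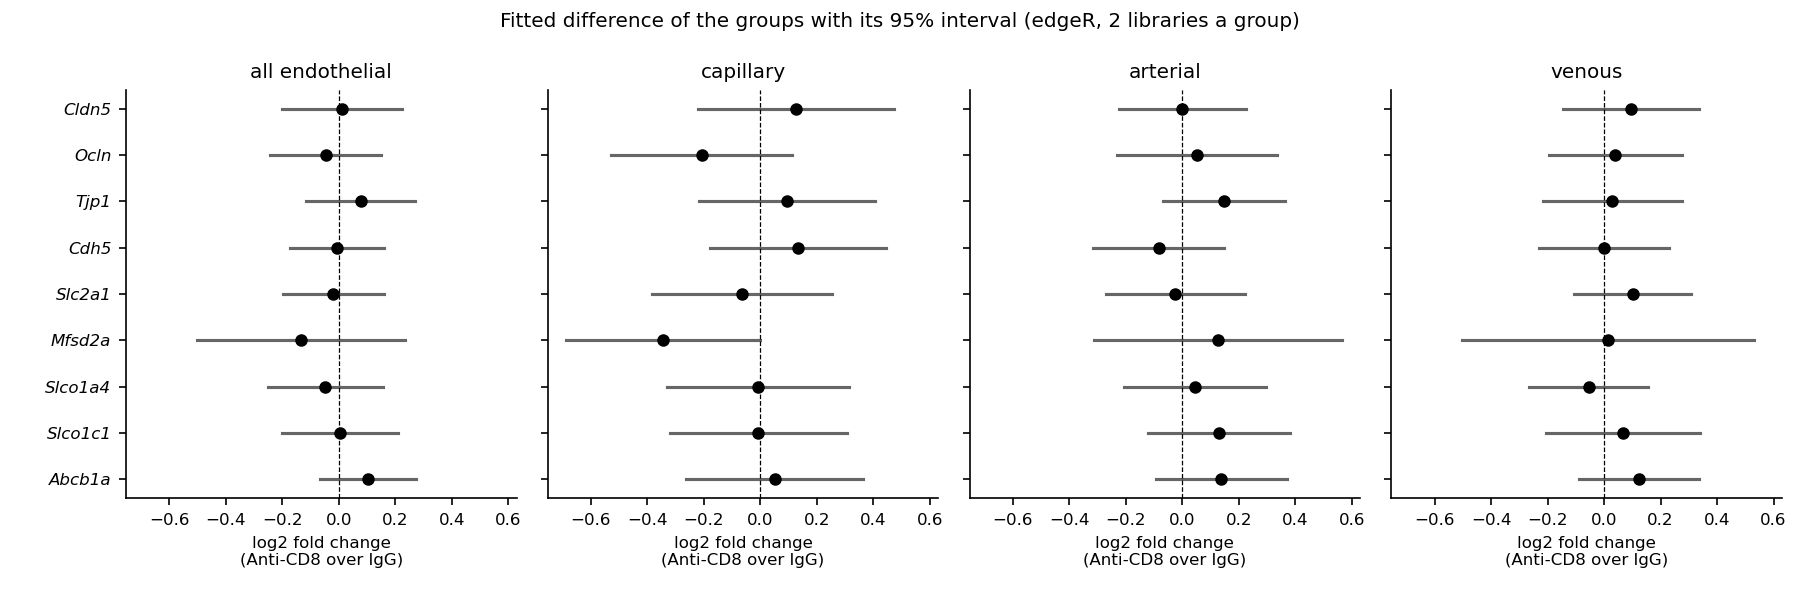
Log2 fold change of Anti-CD8 over IgG for the 9 tested barrier genes in all endothelial cells and in the 3 segments, with the 95% interval of the edgeR fit as a line. In all endothelial cells the intervals stay between -0.25 and 0.27 except that of Mfsd2a, and Mfsd2a in capillary cells lies furthest from 0.

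The wider pathways of the barrier were read from 7 lists beside the members, chosen with earlier results of these data known. In endothelial cells 0 genes of any list were called in either direction. Of 15 tested junction genes, 10 were above 0 and 5 below with a median log2 fold change of 0.01, and the highest in level, Pecam1 and Esam, were at 0.03 and 0.01. Of 15 carriers, 12 were above 0 with a median of 0.07, with the taurine transporter Slc6a6 at -0.19 and the zinc transporter Slc39a10 at 0.13. Of 6 efflux pumps 3 were above 0, with Abcg2 at 0.19 and Abcc4 at 0.03. Of 11 genes of vesicle transport and caveolae 5 were above 0, with Cavin2 at 0.21 and Cav1 at 0.18, both coat proteins of caveolae. All these values are log2 fold changes beside a median of 0.00 over all genes tested.

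Of 12 pericyte and vessel-stabilising genes, 10 were below 0 with a median of -0.10, with Egfl7 at -0.07 and Eng, a co-receptor of the TGF-beta family, at -0.24. Of 14 tested genes of the list for injured or leaky vessels, 10 were below 0 with a median of -0.21, and its highest in level, Emcn and Cd34, were at 0.04 and 0.00. In that list 8 genes had an unadjusted p under 0.05, beside 665 of all 13920, and its values ran from -1.37 for Ackr1, a venous chemokine receptor, to 1.56 for Apln, a ligand of growing vessels. Angpt2, a ligand that loosens vessels and chosen here after its values were seen, was at 25.4 and 26.3 CPM in the IgG libraries and 44.1 and 44.6 in the Anti-CD8 libraries. Its log2 fold change of 0.77 did not pass (adjusted p = 0.116 in edgeR's quasi-likelihood test). The other 6 lists had between 0 and 4 genes at an unadjusted p under 0.05. Wnt and barrier-inducing signals had 8 of 21 above 0 and a median of -0.04, with the transcription factor Lef1 at -0.06 and the Wnt inhibitor Apcdd1 at 0.17. In that list Sox18, a transcription factor of endothelium, was called in capillary cells, at 221 and 192 CPM in the IgG libraries and 104 and 109.95 in the Anti-CD8 libraries, a log2 fold change of -0.97 (adjusted p = 0.000987 in edgeR's quasi-likelihood test). In all endothelial cells it was at 231 and 209.6 against 108 and 132, a log2 fold change of -0.89 that did not pass (adjusted p = 0.116). There it passed with DESeq2 (adjusted p = 5.25e-07), with no filter on low counts (2.34e-16), and without the first (0.0193) or the second (0.003) IgG library or the second Anti-CD8 library (0.0429). The call in capillary cells was lost with DESeq2 (adjusted p = 0.978), without the first (0.303) or the second (0.198) Anti-CD8 library, and with barrier genes among the clustering genes (0.709). Sox18 was also lower in arterial cells, at -0.81 (adjusted p = 0.309), and in venous cells, at -0.82 (adjusted p = 0.0556, both edgeR's quasi-likelihood test). Both passed in edgeR with no filter on low counts (4.45e-06 and 9.39e-06) and with the replicate number as a block (4.8e-06 and 0.0137). With DESeq2 it passed in venous (adjusted p = 0.0287) but not in arterial cells (0.352). No other list gene was called in a segment.

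Outside endothelium, 0 barrier genes were called in the 10 other classes tested, each with edgeR's quasi-likelihood test. Genes called were 0% in microglia, pericytes with smooth muscle, astrocytes, MHC class II-high myeloid cells and the low-depth endothelial and mural cluster, 0.00657% in the Spp1-high myeloid class, 0.00701% in ependymal cells, 0.00859% in the mixed endothelial and mural cluster, 0.788% in T cells (0.632% higher and 0.156% lower in Anti-CD8) and 1% in neurons (0.708% higher and 0.293% lower). Slc2a1 in microglia, where most of its other UMIs lay, was at 114 and 124 CPM in the IgG libraries and 106 and 125 in the Anti-CD8 libraries, and the groups overlapped. In microglia 5 of 9 barrier genes did not overlap, all higher in Anti-CD8 (Cldn5, Slco1a4, Slco1c1, Cdh5 and Tjp1), beside 31.8% of 18766 genes higher without overlap. Cldn5 there was at 2.40 and 3.14 CPM in the IgG libraries and 3.96 and 5.00 in the Anti-CD8 libraries (log2 fold change 0.65, adjusted p = 0.474 in edgeR's quasi-likelihood test). The 12 endothelial markers, all detected, summed in microglia to 122.4 and 98.0 CPM for IgG against 96.7 and 111 for Anti-CD8. Such a sum does not show how much endothelial RNA these cells carried. Its part in the microglial levels was not tested. In Spp1-high myeloid cells 6 of 8 were higher without overlap (Abcb1a, Cdh5, Cldn5, Ocln, Slco1a4 and Tjp1), beside 29.2% of 15228 genes. All but Tjp1 were low there. The class held at most 0.33% of all UMIs of Cdh5, 0.26% of Cldn5, 0.24% of Slco1a4, 1.46% of Ocln and 1.69% of Abcb1a in a library. For Tjp1 it held 5.62% to 6.72%. The part of endothelial RNA in these levels was not tested. The mixed endothelial and mural cluster had 3 of 9 lower without overlap (Cdh5, Ocln and Slc2a1) and 0 higher, beside 12.6% of 11636 genes lower. Also lower were Mfsd2a in astrocytes, on the few UMIs given above, 1 of 7 (12.5% of 9261 genes). So was Slc2a1 in MHC class II-high myeloid cells, 1 of 3 (14.4% of 9657 genes). T cells had 2 of 4 higher (Cldn5 and Tjp1), beside 23.3% of 10280 genes, and 1 lower (Abcb1a, below).

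Ocln in ependymal cells was lower in both Anti-CD8 libraries, by the values given above, and Slc2a1 was higher, at 283.3 and 283.1 CPM in the IgG libraries and 287 and 316 in the Anti-CD8 libraries. These were 2 of 4 barrier genes tested there, beside 26.5% of all genes without overlap. In the low-depth endothelial and mural cluster 5 of 8 were higher without overlap (Abcb1a, Cdh5, Slco1a4, Slco1c1 and Tjp1), beside 14.9% of 2185 genes, with unadjusted p between 0.0599 and 0.405. Endothelial markers moved with them, at 4655 and 5463 CPM for IgG against 7907 and 6653 for Anti-CD8, and their part was not tested. Tjp1 was called in that cluster without the second Anti-CD8 library (adjusted p = 0.0399). In neurons the log2 fold changes of Cldn5, Slco1a4, Slco1c1, Abcb1a and Slc2a1 were 1.54, 1.68, 2.06, 1.46 and 0.89 (adjusted p between 0.188 and 0.431), without overlap of the groups as in 22% of genes higher in Anti-CD8, and the first IgG library, which held the fewest endothelial marker UMIs, held the lowest level of each of the 5. All 5 became called without the second IgG library, when that first library alone stood for its group, and Slco1c1 became called without the first (adjusted p = 0.0317). With no filter on low counts the same test also called 5 barrier genes in neurons.

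Abcb1a in T cells was the difference nearest to a call. It was at 510 and 468 CPM in the IgG libraries and 349 and 319 in the Anti-CD8 libraries, so that the groups did not overlap, beside 42.1% of the 10280 genes tested there. The log2 fold change was -0.58 (95% interval -0.84 to -0.32, unadjusted p = 0.000628, adjusted p = 0.0621 in edgeR's quasi-likelihood test). It was -0.63 without the T-cell cluster of doubtful name (adjusted p = 0.0594). It passed with DESeq2 (adjusted p = 0.00998), without doublet removal (adjusted p = 0.0459), with no filter on low counts (adjusted p = 4.94e-05), and without the second IgG library (adjusted p = 0.00271) or the first Anti-CD8 library (adjusted p = 0.046). The share of T cells with a Cd8a or Cd8b1 UMI moved with it, at 82.6% and 69.8% in the IgG libraries and 36.0% and 34.8% in the Anti-CD8 libraries.

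When T cells were divided by that UMI, the levels of Abcb1a lay apart in both groups. With a CD8 UMI they were 547 and 518 CPM in the IgG libraries and 414 and 406 in the Anti-CD8 libraries, a log2 fold change of -0.37 (unadjusted p = 0.0249, adjusted p = 0.66 in edgeR's quasi-likelihood test). Without one they were 299 and 317 against 297 and 262, a log2 fold change of -0.15 (unadjusted p = 0.326, adjusted p = 1). Every library was higher with a CD8 UMI than without, and the difference of these fold changes was not tested. NK cells had 17 cells in the first IgG library, too few for the test, and held Abcb1a at 301, 232, 264 and 250.3 in the 4 libraries, with the groups overlapping.

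**Figure D5:**
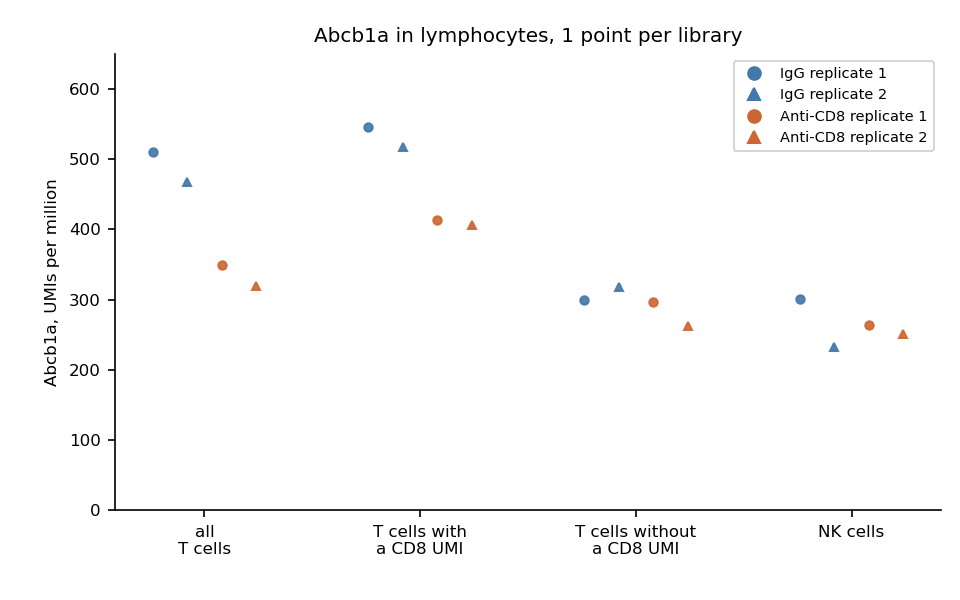
Level of Abcb1a in CPM in all T cells, in T cells with and without a Cd8a or Cd8b1 UMI, and in NK cells, with 1 point for each library. T cells with a CD8 UMI sit between 406 and 547, above T cells without one at 262 to 317.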

How the data were processed

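Single-cell libraries of the 4 samples were deposited by the authors as UMI counts for each gene in each barcode, not normalized, made with Cell Ranger 7.1.0 per the file headers and on build GRCm39 per the submitters' processing notes. Whether intronic or antisense reads were counted is not given in the sources used here. Barrier genes, gene lists and markers were chosen with earlier results of these data known.

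Barcodes under 300 genes or over 20% mitochondrial UMIs were dropped, and the highest Scrublet scores were removed as doublets at 0.8% per 1000 cells. Clusters were made in scanpy 1.11.5 with leidenalg 0.10.2 (3000 variable genes, 30 components, resolution 1), leaving the barrier genes out of the variable genes, and again within endothelium (2000 genes, 20 components). A cluster was named at a mean log2 fold of 1.5 over its markers and a margin of 0.5. Clusters of the macrophage lineage were instead named by comparison with the cluster that scored highest for monocyte and macrophage markers, as microglia where 5 or more microglial markers were at least 2 times as high, otherwise as Spp1-high where Spp1 was. Vascular clusters short of the margin were kept apart by depth. A segment was named at 0.3, a margin of 0.2 and 1 own marker among its top 10 genes. These cut-offs were set after seeing the clusters.

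Sums of UMIs for each class in each library entered edgeR 4.0.16 (TMM, filterByExpr, quasi-likelihood, Benjamini-Hochberg), at least 10 cells a library in segments and 20 in classes, and with DESeq2 1.42.0 as an alternative. The script was tested on simulated counts. An exact permutation of 2 against 2 libraries cannot go below p = 0.33, so none is given. Library totals of 152457679 to 170539226 UMIs set the precision. All barrier genes are named. Of the lists, the 2 genes highest in endothelium and any gene called there are named, and the most alike gene to each barrier gene is that with the highest r among genes with a class mean of at least 10 CPM. Promoters are on GRCm38.p6, so no coordinate was matched to the files' build. Shared replicate numbers were not taken as a pairing in the main test (r = 0.024 for same-numbered libraries), though this r cannot exclude a pairing. Classes with under 20 cells in a library were not tested.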

Additional observations from a re-analysis of the deposited data

How the results depend on the processing

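Over the planned and added alternatives, 144 values of the 9 log2 fold changes in endothelial cells lay between -0.43 and 0.23, and 0 barrier genes were called in endothelial cells or a segment. Signs of values near 0 turned. For leaving out 1 library the ranges were -0.07 to 0.10 for Cldn5, -0.14 to 0.05 for Ocln, -0.01 to 0.16 for Tjp1, -0.03 to 0.01 for Cdh5, -0.07 to 0.04 for Slc2a1, -0.43 to 0.23 for Mfsd2a, -0.15 to 0.06 for Slco1a4 and -0.11 to 0.13 for Slco1c1, and for Mfsd2a -0.27 to 0.59 in arterial and -0.41 to 0.64 in venous cells. Cldn5 turned to 0 without doublet removal and -0.01 with the mixed cluster, Slco1c1 to -0.01 without doublet removal, 0 with the stricter cell filter and -0.01 with the mixed cluster, Cdh5 to 0.01 without subclusters that held mural or microglial RNA, and Slc2a1 to 0.01 in named segments only. With the stricter cell filter Mfsd2a turned to -0.10 in venous and Ocln to 0.05 in capillary cells. Without doublet removal a further, shallow cluster of 549 cells was named endothelial, with 78 and 110 cells in the IgG libraries and 130 and 231 in the Anti-CD8 libraries. That alternative therefore changed more than the doublets. The causes of the turned signs were not tested.

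Counts of all genes called moved more. The replicate block (the replicate number as a block) gave 32 in endothelial, 29 in arterial, 8 in venous, 201 in T cells and 308 in neurons, and called 1 barrier gene, Abcb1a in T cells (-0.58, adjusted p = 0.029, edgeR). With this block Sox18 in all endothelial cells also passed (-0.89, adjusted p = 1.32e-05, edgeR). Same-numbered libraries deviated with r = 0.024 in endothelial cells. The r = -0.024 of crossed ones follows from that value with 2 libraries a group. Whether same-numbered libraries were paired is not known here, as 1 such r cannot settle it. With no filter on low counts they were 139, 43 and 40 in endothelial, arterial and venous cells, 605 in T cells and 728 in neurons, with 1 barrier gene called in microglia (Cldn5), 1 in T cells and 5 in neurons. DESeq2 gave 6 in endothelial, 0 in capillary and 4 in venous cells, and called 1 barrier gene in T cells. No doublet removal gave 47 in T cells and 1 in neurons, and called 1 barrier gene in T cells. The stricter cell filter gave 1 in capillary, 1 in arterial, 0 in venous cells and 248 in neurons, and barrier genes among the clustering genes gave 1 in capillary and 1 in arterial cells. T cells with a CD8 UMI had 1 gene called and T cells without one 0. Leaving out 1 library gave 0 to 69 in endothelial, 4 to 40 in capillary, 0 to 43 in arterial, 20 to 125 in venous cells, 84 to 497 in T cells and 0 to 485 in neurons, and 0 to 1 barrier genes called in T cells and in Spp1-high myeloid cells (Abcb1a in both, in the latter without the first Anti-CD8 library), 0 to 1 in the low-depth vascular cluster (Tjp1) and 0 to 5 in neurons.

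Shares of endothelial cells with a UMI moved with thinning as printed above (38.7% for Ocln, 87.0% for Tjp1, 60.9% for Cdh5, 96.5% for Slc2a1, 25.5% for Mfsd2a, 96.4% for Slco1a4, 89.4% for Slco1c1 and 91.5% for Abcb1a). In capillary cells only they were 99.6% for Cldn5, 86.4% for Ocln, 97.0% for Tjp1, 93.9% for Cdh5 and 98.3% for Slco1c1. Venous cells were 20.55% of endothelial cells at resolution 0.5 and 15.9% at resolution 2, where no cluster met the capillary rule. Capillary and venous segments could not be named without doublet removal, so that alternative was not run in them. Leaving out the low-depth endothelial and mural cluster was not run either, as it was already apart from endothelial cells in the main clustering. With that cluster added, the 9 values lay between -0.13 and 0.10 and 0 genes were called. Without clusters of doubtful name 0 barrier genes were called in microglia and in T cells. These additions were chosen after seeing the data. With 2 libraries a group, the fits in endothelial cells do not exclude differences as large as the ends of the printed intervals.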
